A study of Mus musculus with 3 samples.

Results

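Muscle stem cells (MuSC, satellite cells) carry surface receptors and secreted proteins by which resting cells are recognized and sorted, and 10 genes of this kind were followed here. They were Calcr, Cd34, Chrdl2, Tek, Vcam1, Cxcr4, Cd82, Megf10, Gas1 and Cav1, named as a list and each read from probe sets that the platform annotation assigns to that gene alone. All 10 were found, on 15 probe sets, among 18193 genes with such a probe set. Where a gene had several probe sets, the one with the highest mean over the arrays gave its value.

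Each of 3 conditions was read on 1 Affymetrix MOE_430_2 array, and every sample came from FACS-sorted CD34+ α7 integrin+ cells of wild-type C57BL/6 mice 8 weeks of age. MuSC +OSM had been cultured for 3 days in 10% FBS with 100 ng/mL Oncostatin M (OSM), a cytokine of the interleukin-6 family. MuSC −OSM had the same 3 days in 10% FBS without it, and the cultures are called with OSM and without OSM where signals are listed. Fresh MuSC were taken without culture, after enzyme digestion of muscle and sorting, although one label of this sample also carries the word vehicle. The study's methods give adult female mice, and cells negative for CD45, CD11b, CD31 and Sca1. The sources do not say whether cells of several mice were pooled. No condition had a replicate, so no test was possible and no difference could be set against a spread between samples. The precision is limited by having 3 arrays. The study mentions biological replicates for its OSM comparison, of which a single array per condition was analysed here.

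Satellite cells rest between the muscle fiber and its basal lamina, and their surface proteins read signals from both. The calcitonin receptor and the angiopoietin receptor Tie2 are known to hold these cells in quiescence, and VCAM1 and the tetraspanin CD82 mark them. Gas1 encodes a co-receptor for Hedgehog signals and Cxcr4 a chemokine receptor, whereas Chrdl2 encodes a secreted relative of a BMP antagonist. On leaving quiescence in culture the cells become myoblasts, which divide and then fuse.

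Signals are MAS5 values, in which the authors' software condensed the probes of a probe set to 1 number on a linear scale. Signals under 40, the median over the arrays, were raised to that floor before division, and a fold that involves such a signal is a lower bound, written "at least". A gene was measured in a comparison where at least 1 of its arrays lay above the floor, and it was counted as higher or lower at 2-fold or more. Signals of different probe sets do not share a scale, so levels, and sums over a marker list, are compared here between arrays and not between genes. The arrays had trimmed mean signals of 198 to 199, and between 45.9% and 56.8% of probe sets lay above the floor, the highest share in fresh MuSC. For β-actin, whose control probe sets read both ends of the transcript and so report on RNA integrity, the ratio of the 3′ over the 5′ signal was 1.41 with OSM, 1.40 without OSM and 2.35 in fresh MuSC. For Gapdh, the other such control, the ratio was 0.90, 1.14 and 1.36 in the same order. The part of RNA integrity in the differences between the arrays was not tested. Osmr, the OSM receptor gene and a known OSM target, was 31.7-fold higher in MuSC +OSM than in MuSC −OSM. Of the 6 genes listed as a check on the OSM response, 4 were higher and 0 were lower with OSM, against 6.07% and 4.39% of all measured genes. These 6 were listed with earlier results of these data known, so their counts are not an independent check. Osmr had 2063 with OSM, 65 without OSM and 395 in fresh MuSC. Socs3, with the highest ratio, had 8400, 129 and 23588 in this order, so its highest signal was in fresh MuSC.

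The 10 genes were far apart in how they answered culture. Of these, 7 were at least 2-fold lower without OSM than in fresh MuSC and 0 were higher, with a median log2 ratio of -3.51. Among all 12755 measured genes the lower share was 20.4%, the higher share 15.0% and the median -0.14. Above the floor were 7 of the 10 with OSM, 8 without OSM and 10 in fresh MuSC, so Calcr and Cd34 entered this comparison through the fresh array alone. In bulk RNA, fewer cells that carry a transcript and less of it in each cell cannot be told apart.

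**Figure D1:**
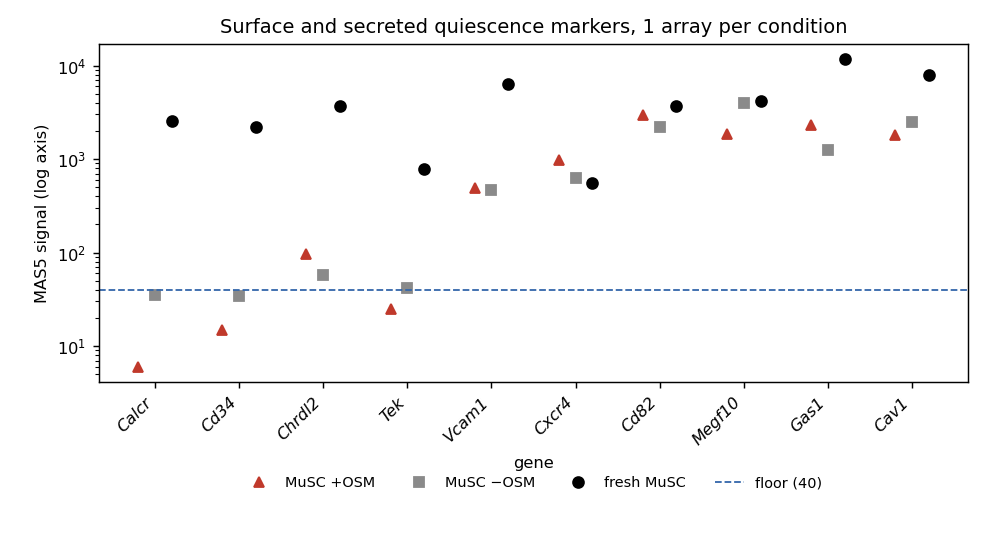
MAS5 signal on a log axis of each of the 10 genes, with MuSC +OSM as red triangles, MuSC −OSM as gray squares and fresh MuSC as black circles, 1 array each, and the floor of 40 dashed. Calcr and Cd34 lie under the floor in both cultures and at 2562 and 2222 in fresh MuSC, whereas the 3 symbols of Cxcr4 lie between 559 and 988.

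The receptors with a known role in holding quiescence had signals at or near the floor in both cultures. Calcr, the calcitonin receptor, had a signal of 6 with OSM, 35 without OSM and 2562 in fresh MuSC. Both cultures lay under the floor, so that Calcr was at least 64.0-fold lower in each of them than in fresh MuSC. Tek, which encodes Tie2, had 25 with OSM, 42 without OSM and 791 in fresh MuSC. Against fresh MuSC it was at least 19.8-fold lower with OSM and 18.8-fold lower without OSM. With both culture arrays at or near the floor, Calcr had no ratio between MuSC +OSM and MuSC −OSM and Tek only a bound.

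Cd34 and Vcam1 were lower in culture to different depths. Cd34, the sialomucin used in the sort, had 15 with OSM, 34 without OSM and 2222 in fresh MuSC, and was at least 55.6-fold lower in each culture. All 3 samples had been gated for CD34 protein, the cultures before their 3 days. Vcam1, an adhesion molecule that binds α4 integrins, had 493 with OSM, 464 without OSM and 6363 in fresh MuSC. It kept a signal well above the floor in both cultures and was 13.7-fold lower without OSM than in fresh MuSC. Between the cultures the ratio was 1.06-fold, and its other probe sets gave 156 and 63 with OSM, 154 and 64 without OSM and 1668 and 709 in fresh MuSC. The 3 probe sets of Vcam1 thus gave between 10.8-fold and 13.7-fold lower signals without OSM than in fresh MuSC, and none of them moved by more than 1.06-fold with OSM.

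The secreted and the lipid-anchored proteins of the list were also lower in culture, but both had higher signals with OSM, by less than 2-fold as deposited. Chrdl2, a secreted relative of the BMP antagonist chordin, had 97 with OSM, 58 without OSM and 3709 in fresh MuSC. Its level was 63.9-fold lower without OSM than in fresh MuSC, which stood 19th from the lowest of the 12755 measured genes. Between the cultures Chrdl2 was 1.67-fold higher with OSM, and 1.21-fold with the floor at 80. Gas1, a cell surface protein named for growth arrest and a co-receptor for Hedgehog ligands, had 2305 with OSM, 1247 without OSM and 11723 in fresh MuSC. Against fresh MuSC it was 5.09-fold lower with OSM and 9.40-fold lower without OSM. These folds depended on the probe set, and with the mean over its probe sets Gas1 was 2.49-fold lower with OSM and 3.57-fold lower without OSM. Chrdl2 and Gas1, and none of the other genes, stand in the signature gene list given with the study, which was picked for regulation in published data and in cultures of these cells with and without OSM. Their direction with OSM is therefore not independent of that choice.

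Cav1, which encodes the scaffold protein of caveolae, had 1788 with OSM, 2515 without OSM and 7981 in fresh MuSC. Its level was 4.46-fold lower with OSM and 3.17-fold lower without OSM, each against fresh MuSC, and all 3 signals lay far above the floor.

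Cxcr4, Cd82 and Megf10 differed by less than 2-fold between MuSC −OSM and fresh MuSC. Cxcr4, the receptor for the chemokine CXCL12, had 988 with OSM, 629 without OSM and 559 in fresh MuSC, and was the 1 gene of the 10 that did not have its highest signal in fresh MuSC. Cd82 had 2945 with OSM, 2195 without OSM and 3701 in fresh MuSC, a ratio of 1.69-fold lower without OSM than in fresh MuSC. Megf10, a receptor with EGF repeats that takes part in myoblast proliferation, had 1853 with OSM, 3963 without OSM and 4202 in fresh MuSC. Its signals in MuSC −OSM and fresh MuSC differed by 1.06-fold, with a sign that turned with the scaling (log2 ratios of -0.36 to 0.47), and the low array was MuSC +OSM.

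**Figure D2:**
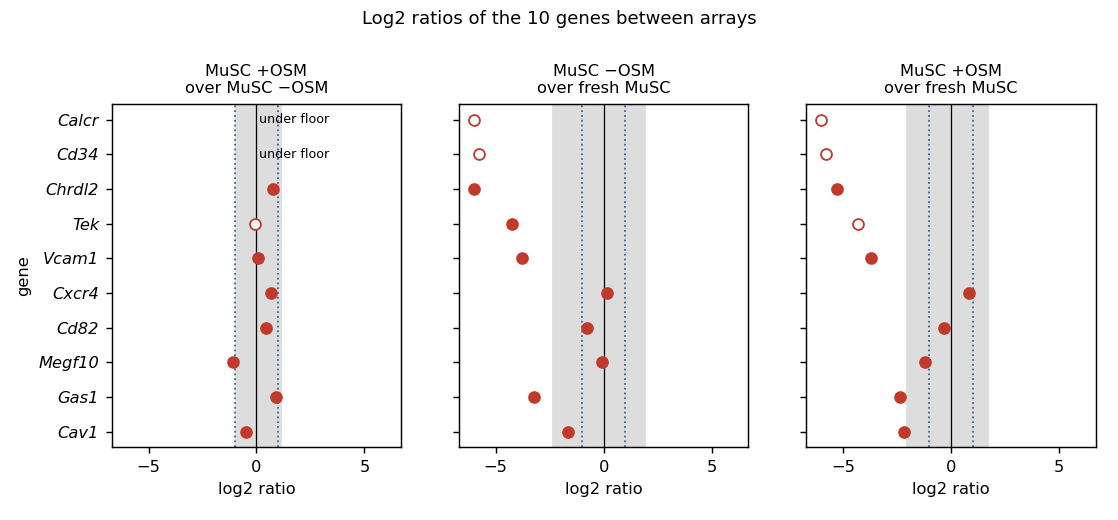
Log2 ratio of each of the 10 genes in the 3 comparisons, with open circles where the lower signal lay under the floor of 40, dotted lines at 2-fold and a gray band from the 5th to the 95th percentile of all measured genes. For MuSC −OSM over fresh MuSC 6 genes lie below the band, whose lower edge is -2.36, and in MuSC +OSM over MuSC −OSM only Megf10 lies outside it, at -1.10.

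The difference between the cultures was read in MuSC +OSM over MuSC −OSM, where 8 of the 10 were measured. In this comparison 0 were at least 2-fold higher, against 6.07% of 11271 measured genes, and 1 was lower, against 4.39%. The median log2 ratio of the 8 genes was 0.26, and over all measured genes it was -0.01. The sign of this median depended on the processing, since it was -0.20 with a floor at 20, where Calcr and Cd34 were measured too, and -0.02 with the mean over the probe sets of a gene. The lower gene was Megf10, at 2.14-fold lower and 385th from the lowest. The highest ratios were 1.85-fold for Gas1, 837th from the highest, 1.67-fold for Chrdl2 and 1.57-fold for Cxcr4. Cd82 was 1.34-fold higher, a sign that turned with its probe set, Vcam1 1.06-fold higher and Cav1 1.41-fold lower. Tek is the eighth gene, measured through its signal of 42 without OSM alone, and its ratio was a bound of at least 1.05-fold lower. Some markers of stromal cells were also higher in this comparison. Of 5 measured fibro-adipogenic progenitor markers, 2 passed 2-fold upward and 0 downward, namely Dcn, with 373 with OSM and 32 without OSM, and Col1a1, with 164 and 53. Of 6 measured pericyte and smooth muscle markers, 2 passed it upward and 0 downward, namely Pdgfrb, with 738 with OSM and 139 without OSM, and Kcnj8, with 83 and 23, while Acta2 had 13114 and 19053. Of the 2 cultures, Dcn, Lum, Pdgfra, Rgs5 and Kcnj8 lay above the floor with OSM alone, so these markers could not be counted as lower. The part of stromal cells in the ratios of Gas1 and the other genes was not tested.

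The call of Megf10 lay close to the threshold. With arrays centred on their median signal it was 1.90-fold lower and no longer counted, while Gas1 was 2.08-fold higher and was counted.

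Set against fresh MuSC, 8 of the 10 genes in MuSC +OSM were at least 2-fold lower, against 17.2% of 12483 measured genes, and 0 were higher, against 13.8%. Calcr, Cd34 and Tek lay under the floor with OSM and passed as measured through the fresh array alone. These 8 were the 7 genes lower without OSM and Megf10, which was 2.27-fold lower, or 1.37-fold and no longer counted with median-centred arrays. The median log2 ratio was -3.02, and -0.14 over all measured genes. Cxcr4 was 1.77-fold higher than in fresh MuSC, or 2.93-fold with median-centred arrays, where it was counted as higher, and Cd82 was 1.26-fold lower, with log2 ratios of -0.48 to 0.40 over the alternatives. The last 2 comparisons share the fresh array, and the first shares an array with each of them.

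The balance of higher and lower genes over the whole array depended on the scaling. Of genes counted as higher or lower, 58.0% were higher in MuSC +OSM over MuSC −OSM, 42.4% in MuSC −OSM over fresh MuSC and 44.5% in MuSC +OSM over fresh MuSC. With median-centred arrays these shares were 72.0%, 70.2% and 80.4%, and the median log2 ratio of all genes moved by 0.15, 0.50 and 0.70, in the same order. After quantile normalization they were 54.2%, 53.4% and 54.8%, with moves of -0.02, 0.24 and 0.21. Relative to the median of all genes, the log2 ratio of Megf10 in MuSC +OSM over MuSC −OSM was -1.09 as deposited, -1.07 after centring and -0.98 after quantile normalization. The same 7 genes were lower without OSM than in fresh cells under each of these scalings.

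For Vcam1, Gas1 and Cd82 the other probe sets served as a check, since the other 7 genes had 1 probe set each. Of 4 such probe sets measured in MuSC −OSM over fresh MuSC, 3 went the same way as the main one. The second Gas1 probe set had 780 with OSM, 602 without OSM and 2908 in fresh MuSC, so its ratio with OSM was 1.30-fold where the main probe set gave 1.85-fold. The third had 49, 28 and 35 in the same order, at or near the floor. The second Cd82 probe set had 59 with OSM, 103 without OSM and 84 in fresh MuSC and ran against the main one both with OSM and in culture. In MuSC +OSM over MuSC −OSM, 3 of 5 other probe sets went the same way as the main one. In MuSC +OSM over fresh MuSC, 4 of 5 did.

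**Figure D3:**
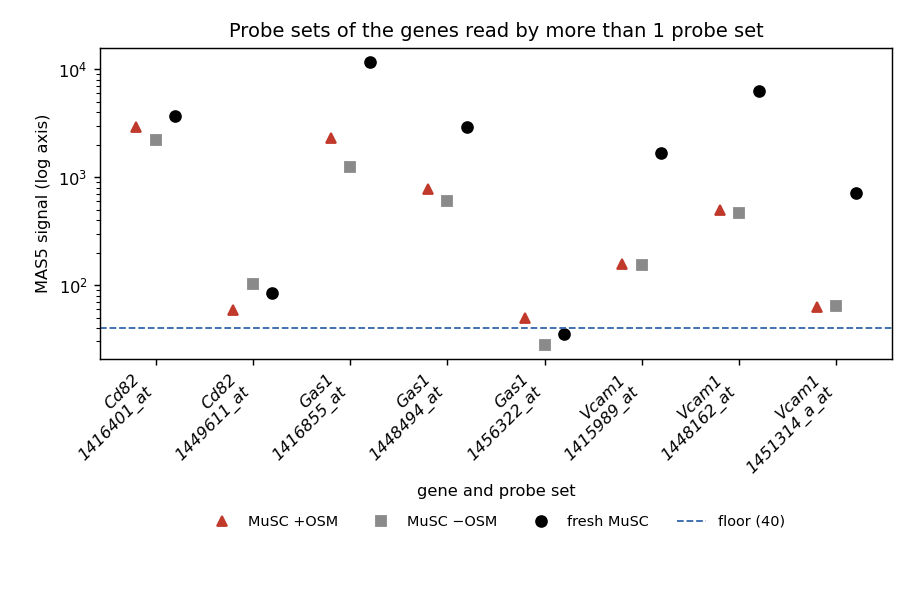
Log-axis plot of the MAS5 signals of the 8 probe sets of Cd82, Gas1 and Vcam1, with MuSC +OSM as red triangles, MuSC −OSM as gray squares and fresh MuSC as black circles, 1 array each, and the floor of 40 dashed. The 3 probe sets of Vcam1 share 1 pattern. The dim probe sets of Cd82 and Gas1 follow the bright ones in some comparisons and not in others.

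The 10 profiles over the 3 arrays were compared by Euclidean distance from their median, after each gene's log2 signals were set relative to their own mean. Vcam1 lay nearest to the median, at 0.35, followed by Gas1 at 0.64 and Tek at 0.79. Cxcr4 lay farthest, at 3.16, with Megf10 at 2.44 and Cd82 at 2.31, and the remaining genes lay at 1.31 to 2.17. Among 8484 other genes with a signal of 160 or more on at least 1 array, the nearest to this median were Il33, Slc2a12, Efemp1, Klf2 and Otoa, at distances of 0.12 to 0.14. Il33, an interleukin-1 family cytokine, had 55 with OSM, 47 without OSM and 531 in fresh MuSC. These distances rest on 3 arrays.

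Promoter windows, taken from RefSeq on GRCm38.p6 from 250 bases before to 50 bases after a transcript start, were given for 7 of the 10 genes, in 12 windows. Chrdl2, Vcam1 and Megf10 had none. They were searched on both strands for TTCNNNGAA, the letters of STAT sites, since OSM signals through STAT3, and for GTGGGAA, the letters of sites of the Notch effector RBPJ. TTCNNNGAA was found in 1 of the 12 windows, of Cd82, and in 8.30% of 32851 windows of the same length, and GTGGGAA in 0 of the 12 and 6.38% of all windows. The windows below are those of 3 genes lost in culture, then of Cxcr4 and Cd82, which were not, so that both kinds can be read side by side. Capitals mark the TTCNNNGAA match, at bases 252 to 260 of the Cd82 window, and the other windows held neither motif.
Cd34 (chr1:194938571-194938870, plus strand): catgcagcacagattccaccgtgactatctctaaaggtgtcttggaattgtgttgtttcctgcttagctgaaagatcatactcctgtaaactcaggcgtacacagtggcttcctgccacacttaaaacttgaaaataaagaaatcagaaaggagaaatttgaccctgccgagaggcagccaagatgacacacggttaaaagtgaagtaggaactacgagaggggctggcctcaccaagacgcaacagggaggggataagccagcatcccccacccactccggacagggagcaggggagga
Tek (chr4:94739039-94739338, plus strand): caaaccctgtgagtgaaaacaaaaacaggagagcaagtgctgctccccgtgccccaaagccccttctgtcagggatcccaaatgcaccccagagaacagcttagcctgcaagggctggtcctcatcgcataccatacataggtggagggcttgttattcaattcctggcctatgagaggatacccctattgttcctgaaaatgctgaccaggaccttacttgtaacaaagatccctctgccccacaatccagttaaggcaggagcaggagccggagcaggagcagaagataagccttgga
Calcr (chr6:3763574-3763873, minus strand): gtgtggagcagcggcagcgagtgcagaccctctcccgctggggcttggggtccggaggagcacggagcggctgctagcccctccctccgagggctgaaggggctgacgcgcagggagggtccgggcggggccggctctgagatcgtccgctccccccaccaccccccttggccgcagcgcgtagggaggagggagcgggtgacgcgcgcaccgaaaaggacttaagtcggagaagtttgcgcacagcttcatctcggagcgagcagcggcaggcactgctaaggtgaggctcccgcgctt
Cxcr4 (chr1:128592250-128592549, minus strand): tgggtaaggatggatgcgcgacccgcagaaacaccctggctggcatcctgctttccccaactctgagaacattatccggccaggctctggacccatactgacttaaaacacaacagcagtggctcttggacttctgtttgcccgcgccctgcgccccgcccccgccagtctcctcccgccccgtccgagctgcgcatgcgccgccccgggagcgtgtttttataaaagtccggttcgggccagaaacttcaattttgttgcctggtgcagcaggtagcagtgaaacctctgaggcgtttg
Cd82 (chr2:93452623-93452922, minus strand): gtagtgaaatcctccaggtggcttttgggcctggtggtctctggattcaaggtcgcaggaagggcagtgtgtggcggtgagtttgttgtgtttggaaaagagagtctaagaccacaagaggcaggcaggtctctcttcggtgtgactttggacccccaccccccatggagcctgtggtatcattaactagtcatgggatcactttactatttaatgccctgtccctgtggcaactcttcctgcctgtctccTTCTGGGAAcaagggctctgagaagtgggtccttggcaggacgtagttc
Cd82 has 4 such windows and Calcr has a second one. The Calcr window shown has 29 CpG dinucleotides and the Cxcr4 window 20, against 7 for Cd34 and 3 for Tek, with a median of 7 over all windows. The other Calcr window and the Cd82 window shown have 4 each. The windows shown of the 3 genes lost in culture thus had CpG counts above, at and below that median.

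The binding partners and relatives of the 10 genes, 41 of which were listed and 38 read by a probe set of their own, were followed next. Without OSM, 17 of 32 measured partners were at least 2-fold lower and 3 were higher than in fresh MuSC, with a median log2 ratio of -1.47, against 20.4% and 15.0% of all measured genes. Between MuSC +OSM and MuSC −OSM, 6 of 29 were higher and 3 were lower, with a median of 0.37, against 6.07% and 4.39% of all measured genes. Of the same 32 partners, 16 were lower and 2 were higher in MuSC +OSM than in fresh MuSC, against 17.2% and 13.8%. Some counted partners were measured only through the array where they were high, so their direction was set by the floor. Against fresh MuSC these were Calcrl, Chrdl1 and Gfra1 without OSM, and Chrdl1, Bmp2 and Itga4 with OSM. Between the cultures, Calcrl and Gfra1 were measured through MuSC +OSM alone, and Itga4 and Angpt2 through MuSC −OSM alone.

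**Figure D4:**
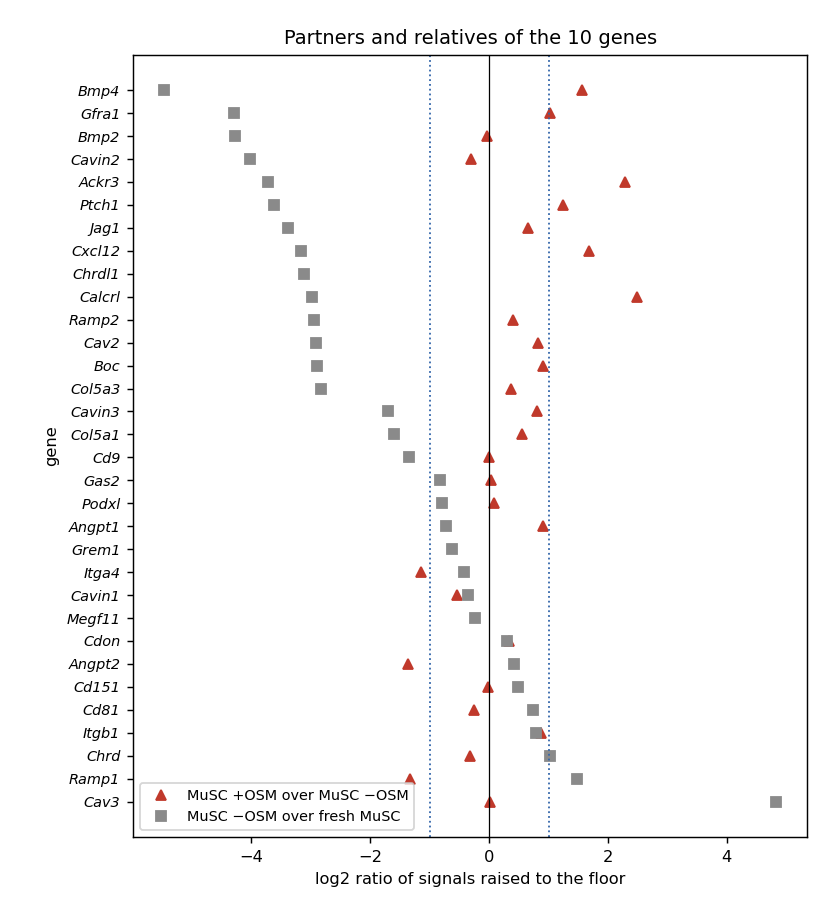
Log2 ratio of the 32 measured partners and relatives, with red triangles for the ratio of MuSC +OSM over MuSC −OSM, drawn where 1 of these arrays lay above the floor of 40, gray squares for that of MuSC −OSM over fresh MuSC, and dotted lines at 2-fold. Bmp4 has the lowest gray square, at -5.47, Cav3 the highest, at 4.83, and Calcrl the highest red triangle, at 2.48.

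Around Calcr, the related receptor gene Calcrl had 223 with OSM, 31 without OSM and 314 in fresh MuSC. It was at least 5.58-fold higher with OSM, whereas Calcr stayed under the floor. RAMP proteins pair with both receptors, and Ramp2 had 61 with OSM, 46 without OSM and 355 in fresh MuSC. Ramp1 had 64, 161 and 58 in this order and was 2.52-fold lower with OSM. Collagen V is a ligand of the calcitonin receptor in satellite cells, and its chain gene Col5a3 had 217 with OSM, 168 without OSM and 1195 in fresh MuSC.

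The chemokine axis of Cxcr4 was split among its members. Ackr3, the other receptor for CXCL12, had 2516 with OSM, 517 without OSM and 6813 in fresh MuSC. It was 13.2-fold lower without OSM than in fresh MuSC and 4.87-fold higher with OSM. The ligand gene Cxcl12 had 238 with OSM, 74 without OSM and 660 in fresh MuSC, which made it 3.22-fold higher with OSM. Cxcr4 itself lay within 2-fold in each comparison as deposited.

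Bmp4 and Bmp2, ligands of the pathway of Chrdl2, and Ptch1 and Boc, of the pathway of Gas1, were lower in culture. Bmp4 had 174 with OSM, 59 without OSM and 2622 in fresh MuSC. It was 44.4-fold lower without OSM than in fresh MuSC and 2.95-fold higher with OSM, and Bmp2, with 21, 41 and 797 in the same order, lay at or near the floor in both cultures. The chordin relative Chrdl1 was above the floor in fresh MuSC alone, at 347. Ptch1, the Hedgehog receptor and a known target of the pathway, had 426 with OSM, 180 without OSM and 2214 in fresh MuSC. Boc, a co-receptor like Gas1, had 84, 45 and 335 in this order, while the co-receptor Cdon had 3869, 3061 and 2484. Gfra1, the receptor for the neurotrophic factor GDNF and a structural relative of Gas1, had 81 with OSM, 24 without OSM and 780 in fresh MuSC. The ligand gene Shh lay under the floor on each array.

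Caveolar genes moved in both directions in culture. Cav2, the partner of caveolin 1, had 358 with OSM, 203 without OSM and 1534 in fresh MuSC. Cavin2, a coat protein of caveolae, had 278 with OSM, 344 without OSM and 5611 in fresh MuSC, which made it 16.3-fold lower without OSM than in fresh MuSC. Cav3, the muscle caveolin, had 4322 with OSM, 4273 without OSM and 150 in fresh MuSC, 28.5-fold higher in MuSC −OSM than in fresh MuSC and within 1.01-fold between the cultures.

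The integrin partners of Vcam1 went apart. Itga4 had 19 with OSM, 89 without OSM and 120 in fresh MuSC, and was at least 2.23-fold lower with OSM. Itgb1, the β1 integrin chain, had 5730 with OSM, 3130 without OSM and 1820 in fresh MuSC. Of the Tie2 ligands, Angpt1 had 92 with OSM, 49 without OSM and 81 in fresh MuSC, and Angpt2 had 32, 103 and 77 in this order, at least 2.58-fold lower with OSM. Of the tetraspanin relatives of Cd82, Cd81 had a signal of 4946, 5928 and 3571 and Cd9 one of 2116, 2132 and 5425, in the same order.

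Other surface proteins of satellite cells were followed beside them, and their counts and those of the next lists stand against the same shares of all measured genes, 20.4% lower and 15.0% higher in MuSC −OSM over fresh MuSC and 4.39% lower and 6.07% higher with OSM. Of 18 measured, 10 were at least 2-fold lower and 2 were higher in MuSC −OSM than in fresh MuSC, with a median log2 ratio of -1.23, and 3 were higher and 0 lower with OSM. Sdc4, a heparan sulfate proteoglycan that marks satellite cells, had 1368 with OSM, 862 without OSM and 10047 in fresh MuSC. The teneurin gene Tenm4 had 41, 47 and 1108 in this order. Egfr, the EGF receptor, had 219 with OSM, 45 without OSM and 1498 in fresh MuSC and was 4.87-fold higher with OSM. Of the integrin chain used in the sort, Itga7 had 1238 with OSM, 1808 without OSM and 499 in fresh MuSC. Among 14 quiescence genes that act inside the cell, 13 were lower without OSM than in fresh MuSC, while 2 were higher and 1 was lower with OSM. The myogenic list went the other way, with 12 of 12 higher in MuSC −OSM than in fresh MuSC. With OSM, 0 of these 12 were higher and 2 were lower than without it, with a median log2 ratio of -0.76.

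Several of the 10 genes are also known from other cells of muscle, Cd34, Tek, Vcam1 and Cav1 from endothelium and Cd34 and Gas1 from fibroblastic cells. Of 12 endothelial markers, 2 lay above the floor with OSM, 2 without OSM and 6 in fresh MuSC, with summed signals of 334, 367 and 875. Pecam1, which encodes the CD31 removed in the sort, had 2 with OSM, 4 without OSM and 4 in fresh MuSC, and Tie1 had 7, 2 and 2 in this order. The 6 above the floor in fresh MuSC were Cdh5, Eng, Esam, Egfl7, Kdr and Cldn5, and Cdh5 had 22 with OSM, 6 without OSM and 268 in fresh MuSC. Of 6 fibro-adipogenic progenitor markers, 5 lay above the floor with OSM, 2 without OSM and 6 in fresh MuSC, with summed signals of 726, 209 and 19055. Dpt had 99 with OSM, 76 without OSM and 5094 in fresh MuSC, and Pdgfra, a defining marker of these cells, had 43 with OSM, 17 without OSM and 140 in fresh MuSC. Summed Schwann cell markers were 211, 104 and 4287, of which Mbp gave 98, 66 and 3747. Of 8 leukocyte markers, 1 lay above the floor with OSM, 2 without OSM and 3 in fresh MuSC, with summed signals of 231, 211 and 1374. Lyz2 gave 1204 of the sum in fresh MuSC and lay under the floor in both cultures. Ptprc, which encodes the CD45 removed in the sort, had 7, 2 and 1 in this order. Itgam, which encodes CD11b, had 1, 26 and 23, and Csf1r had 149, 62 and 58. Pericyte and smooth muscle markers summed to 15289, 20449 and 10071, of which Acta2 gave 13114, 19053 and 6543. Of these 7 markers, 4 were at least 2-fold lower and 2 were higher in MuSC −OSM than in fresh MuSC, against 20.4% and 15.0%. Among the lower ones, Rgs5 had 59 with OSM, 35 without OSM and 1687 in fresh MuSC. Rgs5, Myh11 and Kcnj8 lay under the floor without OSM and were measured through the fresh array alone. The part of these other cell types in the levels of the 10 genes was not tested. The satellite cell marker Pax7 had 431 with OSM, 282 without OSM and 4006 in fresh MuSC.

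**Figure D5:**
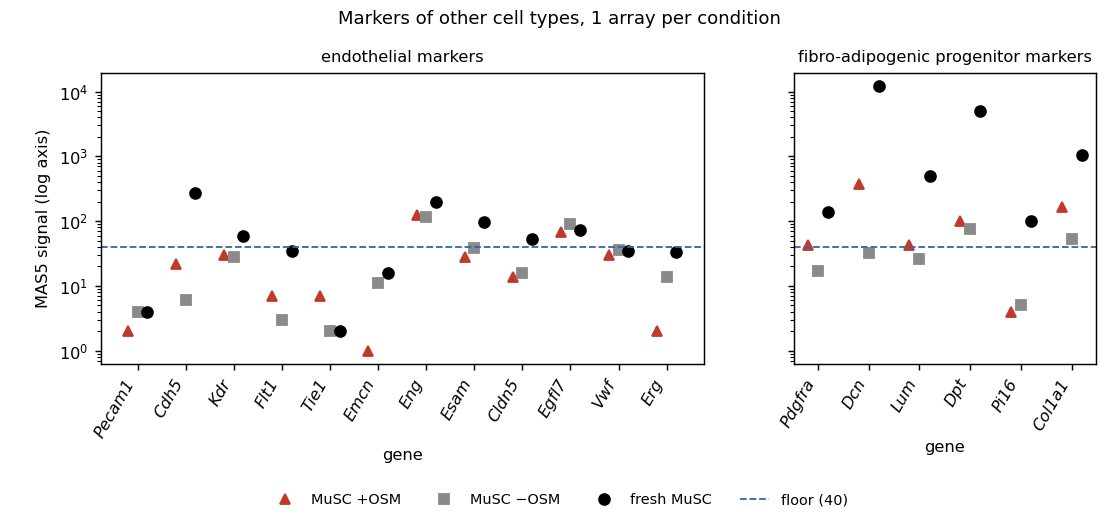
MAS5 signal on a log axis of 12 endothelial and 6 fibro-adipogenic progenitor markers, with MuSC +OSM as red triangles, MuSC −OSM as gray squares and fresh MuSC as black circles, 1 array each, and the floor of 40 dashed. Most endothelial symbols lie under the floor, while Dcn and Dpt lie at 12179 and 5094 in fresh MuSC.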

How the data were processed

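RNA of FACS-sorted MuSC was amplified by the authors with 3′ IVT Express reagents and hybridized to Affymetrix MOE_430_2 arrays, 1 per condition. The deposited values are MAS5 signal intensity on a linear scale, whose scaling and version are not given in the sources used here. They were whole numbers, and the trimmed means (2% at each end) of the 3 arrays were nearly equal.

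From these values 64 control probe sets were left out, which left 45037. Of these, 34945 named 1 gene, 932 several and 9160 none in the platform annotation, and only the first were used. Python 3.11.15, numpy 2.4.6 and pandas 2.3.3 served for the ratios, and steps were tested on simulated data. With 1 array per condition no test was run. Members and lists were chosen with earlier results of these data known. All 10 genes are named. A rule to name up to 4 genes of each list with the largest ratio in a comparison, and the defining markers, was followed only in part. Several lists have genes with larger ratios that are not named, and no gene of the myogenic list is named. Other partners were named after their values were seen. Listed genes that share every probe set, or have none, were not used. Protein sequences were not analysed here. Alternatives were another scaling, floor, choice of probe set or fold threshold.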

Additional observations from a re-analysis of the deposited data

How the results depend on the processing

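The 7 genes counted as lower in MuSC −OSM over fresh MuSC were the same under each alternative. At 1.5-fold 8 were counted, with Cd82, against 4054 of 12755 measured genes. Over 84 alternative values of the counts and medians of the 10 genes, 75 stayed near the value reported, and no value past 2-fold changed sign. In MuSC +OSM over MuSC −OSM, the count of higher genes, 0 as reported, was 1 with median-centred arrays (Gas1) and 3 at 1.5-fold (Chrdl2, Cxcr4 and Gas1). Over all measured genes, 992 of 11885 and 1643 of 11271 were higher in these settings. The count of lower genes, 1 as reported, was 0 with median-centred arrays and 0 at 3-fold, and 3 with no floor, when Calcr and Cd34 joined Megf10. Over all measured genes, 385 of 11885, 136 of 11271 and 3138 of 18187 were lower, in the same order. In MuSC +OSM over fresh MuSC, Cxcr4 made the count of higher genes 1 with median-centred arrays and 1 at 1.5-fold. Over all measured genes, 4067 of 12054 and 2966 of 12483 were higher there. The median log2 ratio of the 10 genes was -2.70 in MuSC −OSM over fresh MuSC with the mean over all probe sets of a gene, and -2.29 in MuSC +OSM over fresh MuSC with median-centred arrays. In MuSC +OSM over MuSC −OSM it ran from -0.20 to 0.43 against 0.26 as reported, and was below 0 at a floor of 20, with no floor and with the mean over all probe sets. Against fresh MuSC, median-centred arrays made Gas1 3.07-fold, Vcam1 7.79-fold, Cav1 2.70-fold and Chrdl2 23.1-fold lower with OSM, where 5.09-fold, 12.9-fold, 4.46-fold and 38.2-fold were reported in the same order. The direction of Cd82 with OSM turned to -0.19 with the mean over its probe sets. The causes were not tested. The counts over all measured genes, which set the background, ran from 255 to 2378 higher and 136 to 3138 lower in MuSC +OSM over MuSC −OSM, against 684 and 495 as reported. In MuSC −OSM over fresh MuSC they ran from 947 to 3456 higher and 1376 to 5428 lower, against 1917 and 2606, and in MuSC +OSM over fresh MuSC from 759 to 4067 and 992 to 5708, against 1721 and 2147. Centring on probe sets above the floor on all arrays, chosen after seeing the data because the array median lies near the floor, changed no count of the 10 genes. No paired analysis was possible because each condition had 1 array, and for the same reason no array could be left out. Signals under the floor of 40 have no order, which limits what can be said of Calcr, Cd34 and Tek in culture.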
